A study of Mus musculus with 8 samples.

Results

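Transcripts commonly read as signs of reactive astrocytes, those of *Gfap*, *Vim*, *Serpina3n*, *C4b*, *Cd44*, *Lcn2*, *Stat3* and *Osmr* (8 genes), were followed in the hippocampus of *Wls* mutant mice and their controls. They were chosen by name, and all 8 are among the 46517 genes of the bulk RNAseq tables and the 24051 genes of the snRNAseq matrices. Bulk RNAseq had 1 library from both hippocampi of each of 2 mutant (*Wls fl/-;Gfap-Cre*) and 2 control (*Wls fl/+;Gfap-Cre*) mice, and snRNAseq had 1 sample from both hippocampi of each of 2 mice per genotype, all adults of about 12 weeks. No agent was given. In both genotypes the Tg(Gfap-Cre)25Mes/J transgene drives Cre recombinase from a *Gfap* promoter, and it is active in progenitors of the medial and dorsal cortex before birth. *Wls* encodes a protein that cells need to secrete Wnts. Recombined cells have no functional copy in the mutant and keep 1 in the control, so that there is no group without Cre and none with both copies of *Wls*. The mutant is known to lack most dentate granule cells (DGCs, labelled GC in the deposited annotation) and the corpus callosum.

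Astrocytes respond to injury, infection and loss of neurons by a change in state that is called reactivity. The response raises the intermediate filament proteins GFAP and vimentin, and part of it runs from cytokines of the interleukin-6 family through receptors such as OSMR to the transcription factor STAT3. Secreted proteins, among them the protease inhibitor SERPINA3N, the complement component C4 and the iron carrier lipocalin 2 (LCN2), and the hyaluronan receptor CD44 are raised in many models of it. In the healthy hippocampus GFAP is made by most astrocytes and by the radial glia-like stem cells of the dentate gyrus, and both cell groups can also hold vimentin.

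The 8 genes lie on chromosomes 2, 11, 12, 15 and 17 of GRCm38. *Gfap* (102887336 to 102900912, minus strand) and *Stat3* (100885098 to 100939540, minus strand) are on chromosome 11, and *Vim*, *Lcn2* and *Cd44* are on chromosome 2. STAT proteins bind sites of the form TTCNNNGAA, a palindrome that reads alike on both strands. In RefSeq promoters of 250 bases before to 50 after the start (GRCm38.p6), found for 7 of the 8 genes and not for *C4b*, *Gfap* alone held a match, as did 8.30% of 32851 promoters. It is shown because it is the only match near a start among the members, with the matched bases in capitals, at chr11:102897184-102897213 on the minus strand, the match beginning 2 bases before the start. The window is short, and the match is a description of the letters, not of binding.
*Gfap*: aatgggggtgcTTCCAGGAAgtcaggggca

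All 8 samples are labelled male. In bulk RNAseq, however, *Xist* was at 1.44 and 230 CPM (counts scaled to a common library total) in mutant replicates 1 and 2 and at 1.05 and 518 CPM in control replicates 1 and 2, and the Y-linked *Ddx3y* at 54.5, 0.352, 58.3 and 0.343 CPM in the same order. In astrocyte nuclei *Ddx3y* was at 54.4 to 125 CPM and *Xist* at or below 2.08 CPM in all 4 samples. Bulk replicate 2 of both genotypes thus went against its label, and fold changes within replicate number 1 and within number 2 are given beside the bulk results. The bulk libraries held 56002381 to 79576196 expected counts, and the snRNAseq samples 26307081 to 76486132 UMIs in 5304 to 10460 nuclei. Pairs of snRNAseq samples shared 8 to 21 nucleus barcodes, at most 0.309% of the smaller sample. *Wls* in astrocyte nuclei was at 2.91 and 2.08 CPM in mutant replicates 1 and 2, against 49.9 and 39.6 CPM in control replicates 1 and 2 (log2 FC -4.28 ± 0.45 (SE), FDR = 2.3e-04 by edgeR's quasi-likelihood test).

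In whole hippocampus none of the 8 transcripts differed between genotypes at the thresholds used by the study (FC above 3 and FDR below 0.05 among 20687 genes tested, of which 0.218% passed), nor at FDR below 0.05 with no fold required (1.21% of all genes), by edgeR's quasi-likelihood test. DESeq2 also called 0 of the 8 at the thresholds of the study. No member except *Lcn2* came near an FC of 3 under any alternative, so the fold alone kept them from a call. Fold changes had the same sign within replicate number 1 and within number 2 for 7 of the members, the exception being *Cd44* (0.44 and -0.11). The share of all genes with such agreement was not counted. It cannot be below the 51.1% of all genes whose groups did not overlap, so the count is not a trait of the members. The log2 FC of the 8 members ran from -0.64 to 0.30, with a median of 0.19 against 0.01 over all genes tested. *Vim* and *C4b* had an unadjusted p below 0.05, which 18.8% of all genes had. In bulk tissue more cells of a type and more RNA per cell cannot be told apart.

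*Gfap*, which encodes the main intermediate filament of astrocytes, was at 447 and 378 CPM in mutant replicates 1 and 2 and at 386 and 334 CPM in control replicates 1 and 2. The groups overlapped, since the lower mutant fell just below the higher control (log2 FC 0.20, 95% interval -0.08 to 0.48, FDR = 0.407). Within replicate numbers 1 and 2 it was 0.21 and 0.18. *Vim*, the filament that astrocytes share with vessel, meningeal and progenitor cells, was at 49.2 and 47.2 CPM in the mutants and at 40.7 and 37.8 CPM in the controls. Both mutants lay above both controls, and the difference did not pass the adjusted test (log2 FC 0.30 ± 0.07 (SE), FDR = 0.115). It was 0.27 within replicate number 1 and 0.32 within number 2. With DESeq2 the FDR was 0.0252, and over the 10 alternatives it ran from 0.0252 to 0.659.

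The secreted members did not move as a group. *Serpina3n* was at 183 and 163 CPM in the mutants and at 187 and 180 CPM in the controls, a range in which the genotypes overlap (log2 FC -0.09, 95% interval -0.27 to 0.10, FDR = 0.582; -0.03 and -0.15 within numbers 1 and 2). *C4b* was at 29.8 and 28.8 CPM in the mutants and at 24.7 and 24.5 CPM in the controls. The mutants were higher without overlap, but the difference did not pass the adjusted test (log2 FC 0.25 ± 0.07 (SE), FDR = 0.172; 0.27 within number 1 and 0.23 within number 2), and in TPM, where each library is scaled per transcript length, the lower mutant (18.3) lay below the higher control (18.6). Its expected counts were not whole numbers, since reads that also fit another gene, such as its near-identical copy *C4a* (2.64 to 3.06 CPM), are shared out, so the split is uncertain. The same holds for *Serpina3n*, which has close relatives in the *Serpina3* family. *Lcn2* rested on 12 and 3 counts in the mutants and 12 and 10 in the controls. At that depth a difference was not detectable (log2 FC -0.64, 95% interval -2.83 to 1.56), and the values within numbers 1 and 2 were -0.06 and -1.98.

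The surface receptors and the transcription factor gave no call either. *Stat3*, which carries the signal of interleukin-6 family receptors to the nucleus, was at 47.1 and 47.9 CPM in the mutants and at 51.1 and 49.6 CPM in the controls. Both mutants were below both controls by a small margin (log2 FC -0.08, 95% interval -0.22 to 0.05, FDR = 0.466), by -0.12 and -0.05 within numbers 1 and 2. *Osmr*, the receptor subunit for oncostatin M, was at 5.40 and 6.66 CPM in the mutants and at 4.34 and 5.67 CPM in the controls, with overlap (log2 FC 0.27, 95% interval -0.23 to 0.77, FDR = 0.536). Its values within numbers 1 and 2 were 0.32 and 0.23. *Cd44*, the hyaluronan receptor, was at 4.42 and 2.92 CPM in the mutants and at 3.26 and 3.16 CPM in the controls. Mutant replicate 1 alone was above the controls, and without it the log2 FC of *Cd44* turned from 0.19 to -0.14. In all, 3 of the 8 members had groups that did not overlap, against 51.1% of all genes tested.

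**Figure D1:**
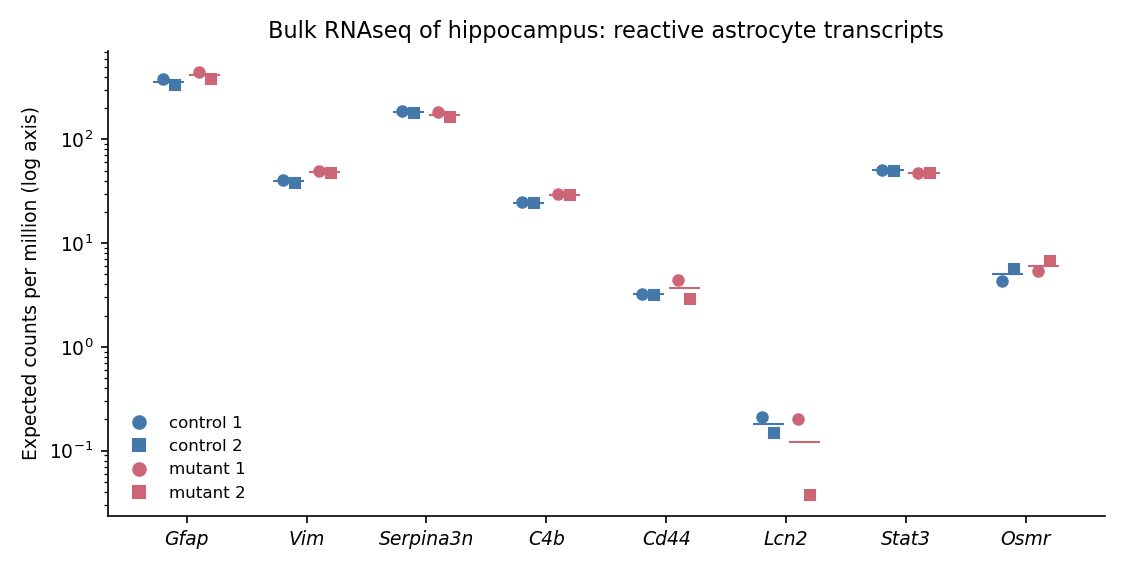
CPM of expected counts (TMM-scaled, log axis) of the 8 transcripts in each bulk library, controls in blue and mutants in red, circles for replicate 1 and squares for replicate 2, with a line at the mean of each genotype. Mutants lie above controls without overlap for Vim and C4b and below them for Stat3, and Lcn2 lies under 0.3 CPM in every library.

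Ranked per length, *Gfap* led the 8 transcripts in every bulk library, at 273 to 335 TPM. *Serpina3n* followed at 166 to 197 TPM, *Vim* at 59.5 to 70.9, *Stat3* at 26.7 to 33.0 and *C4b* at 16.2 to 19.4. *Osmr* (2.03 to 2.73 TPM) and *Cd44* (1.53 to 2.28 TPM) overlapped, and *Lcn2* stood last at 0.09 to 0.53 TPM. The ranges of the first 5 do not overlap, so this order was the same in all 4 libraries.

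The libraries also differed in cells from outside the hippocampus proper. All 12 choroid plexus transcripts listed were higher in the mutants (median log2 FC 4.38), with a summed CPM of 761 and 5824 for the mutants, replicate 1 first, and of 138 and 75.8 for the controls, none of the 12 being at 0. All 6 transcripts of ependyma, the ciliated lining of the ventricles, were higher as well (median log2 FC 1.12), at a sum of 43.7 and 42.4 CPM in the mutants and 24.4 and 19.7 CPM in the controls, without overlap. Of these *Dynlrb2*, a dynein light chain, passed the FDR (2.63 and 2.82 CPM against 0.797 and 0.536 CPM, FDR = 0.0456). Past it among the other listed markers were the meningeal *Slc22a6*, lower in the mutants (FDR = 0.0426), and *Prox1*, a factor of DGCs, likewise lower (FDR = 0.0244). Meningeal fibroblast transcripts summed to 137 and 553 CPM in the mutants and 145 and 174 CPM in the controls, pericyte and smooth muscle transcripts to 247 and 258 CPM against 219 and 228 CPM, and oligodendrocyte transcripts to 5484 and 4069 CPM against 4247 and 3380 CPM. Microglial and endothelial transcripts overlapped between genotypes. Nuclei labelled CP had the choroid plexus transcript *Ttr* at 84987 CPM in control replicate 1 (9 nuclei) but at 6923 CPM in mutant replicate 2 (184 nuclei). In that group of mutant replicate 2, *Vim* was at 5.22 CPM and *C4b* at 1.04 CPM. The part of these cells in the bulk values of *Vim* and *C4b* was not tested.

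Summed over the nuclei deposited as astrocytes, none of the 7 members that passed the filter on low counts differed between genotypes (FC above 2 and FDR below 0.05; 0.383% of 11482 genes passed), by edgeR or by DESeq2. *Lcn2* did not pass the filter. The label itself held: *Slc1a2*, the main glutamate transporter of astrocytes, was at 7088 and 7680 CPM in the mutants and at 7987 and 8229 CPM in the controls, and the water channel *Aqp4* at 416 to 481 CPM. Astrocytes were 167 and 939 nuclei in mutant replicates 1 and 2 and 491 and 570 in control replicates 1 and 2, so that mutant replicate 1 rests on few UMIs. The median log2 FC of the 7 members was -0.17, against 0.00 over all genes tested, and 1 of them had an unadjusted p below 0.05, as had 10.6% of all genes. Transcripts of the choroid plexus summed to 11.6 and 228 CPM in mutant and 85.8 and 25.7 CPM in control astrocyte nuclei, with 9, 0, 2 and 5 of the 12 at 0. The radial glia-like list of 7 transcripts, some of which astrocytes also express, summed to 442 and 464 CPM in the mutants and 533 and 546 CPM in the controls, without overlap. Of its 4 tested members 3 were lower, *Hopx* and *Thrsp* with an unadjusted p below 0.05 and none past the FDR, and *Nes*, which marks these stem cells, was at 0 in both mutants and below 1 CPM in both controls. Ependymal transcripts summed to 5.82 and 10.8 CPM in the mutants and 14.9 and 20.3 CPM in the controls, with 4, 1, 3 and 1 of 6 at 0, and those of pericytes and smooth muscle to 114 and 130 CPM against 185 and 149 CPM. Their part in the values of the members was not tested.

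*Gfap* was at 245 and 366 CPM in mutant and at 582 and 302 CPM in control astrocyte nuclei (84, 881, 665 and 611 UMIs). The genotypes overlapped, and control replicate 1 stood above the other samples (log2 FC -0.48 ± 0.25 (SE), FDR = 0.526). That excess sat in a pair of nuclei. Of the 491 astrocyte nuclei of control replicate 1, 2 had more than 20000 UMIs, namely 55744 and 31032, where the median was 1986. They held 187 and 141 *Gfap* UMIs, 49.3% of the total of the sample, and 28 of its 53 *Vim* UMIs, beside 7.76% of all its astrocyte UMIs. No astrocyte nucleus of the other 3 samples exceeded 16358 UMIs. Without the 2 nuclei, *Gfap* in control replicate 1 was at 322 CPM, and the log2 FC was 0.01 (95% interval -0.39 to 0.41). Doublets were not called here, and whether these are single nuclei was not tested.

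*Vim* was the member with the largest difference in astrocyte nuclei, at 17.5 and 17.4 CPM in the mutants and at 46.4 and 35.6 CPM in the controls (6, 42, 53 and 72 UMIs). Both mutants were lower, and the difference missed the adjusted threshold (log2 FC -1.20 ± 0.31 (SE), FDR = 0.0959). It passed when genes with low counts were kept (FDR = 0.0274) and without mutant replicate 1 (FDR = 0.0361). Without the 2 deep nuclei it shrank to a log2 FC of -0.82 ± 0.33 (FDR = 0.318), with control replicate 1 at 23.9 CPM and still above both mutants. It was -0.55 in nuclei with 0 UMIs of *Snap25*, *Mbp* and *Cx3cr1*, which mark neurons, oligodendrocytes and microglia, and -0.36 in nuclei thinned to 1000 UMIs. The direction is opposite to that in bulk RNAseq. After that thinning, the share with a *Vim* UMI was 2.40% and 1.49% in the mutants and 1.83% and 2.46% in the controls, which overlap.

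*C4b* was at 20.4 and 29.5 CPM in mutant and at 32.4 and 36.6 CPM in control astrocyte nuclei, lower in the mutants without overlap and again opposite to bulk RNAseq (log2 FC -0.34, 95% interval -0.94 to 0.26, FDR = 0.742). Without the 2 deep nuclei control replicate 1 fell to 26.7 CPM and the genotypes overlapped. *Serpina3n* was at 14.6 and 36.1 CPM in the mutants and at 28.0 and 19.8 CPM in the controls. The mutants lay at both ends of the range, and the log2 FC turned from 0.42 to -0.67 without mutant replicate 2. *Lcn2* had 1 UMI, in mutant replicate 2. Among 167, 491 and 570 nuclei with none, a count of 0 allows a share with a UMI of up to 1.80%, 0.611% and 0.526%.

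*Osmr* was the one member that was higher in mutant astrocytes without overlap, at 17.5 and 15.8 CPM against 9.63 and 9.40 CPM (6, 38, 11 and 19 UMIs). The difference did not pass the test (log2 FC 0.76, 95% interval -0.11 to 1.63, FDR = 0.542). Its value stayed between 0.67 and 0.88 over the 11 alternatives that gave one, and none of its UMIs lay in the 2 deep nuclei. *Stat3* was at 122 and 108 CPM in the mutants and at 140 and 116 CPM in the controls, with overlap (log2 FC -0.17, 95% interval -0.61 to 0.27). *Cd44* overlapped, at 11.6 and 13.7 CPM against 12.3 and 13.4 CPM (log2 FC 0.04, 95% interval -0.80 to 0.89). With *Vim*, *C4b* and *Osmr*, 3 of 7 members had groups that did not overlap, against 41.3% of all genes tested. For *Gfap*, *Serpina3n*, *C4b* and *Stat3*, which passed the filter in oligodendrocytes too, the genotype difference in astrocytes was not called different from that in oligodendrocytes of the same samples (interaction in edgeR, FDR = 1, 0.126% of 12698 genes called). The difference between the types was -0.39 ± 0.46 (SE) for *Gfap* and -0.08 ± 0.30 for *Stat3* on the log2 scale. *Vim*, *Cd44* and *Osmr* did not pass the filter in oligodendrocytes alone. They entered the joint fit of both types and were not called different either. The difference between the types was 0.10 ± 0.67 (SE) for *Vim*, -2.45 ± 1.48 for *Cd44* and -1.84 ± 2.01 for *Osmr*. These rest on few oligodendrocyte UMIs, for *Vim* 0 and 5 in the mutants and 0 and 16 in the controls.

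**Figure D2:**
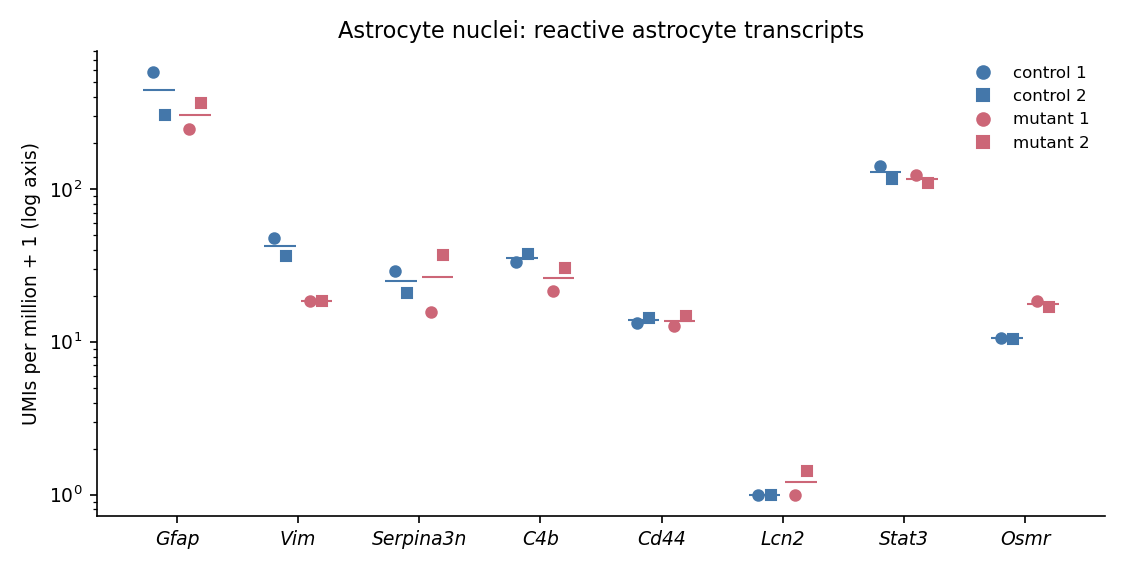
CPM of UMIs plus 1 (TMM-scaled, log axis) of the 8 transcripts summed over the astrocyte nuclei of each sample, controls in blue and mutants in red, circles for replicate 1 and squares for replicate 2, with a line at the mean of each genotype. Vim and C4b are lower and Osmr higher in both mutants, and Lcn2 has 1 UMI in all.

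*Gfap* was concentrated in few of the astrocyte nuclei in all 4 samples. A *Gfap* UMI was found in 17.4% (95% exact binomial interval 11.9 to 24.0) and 30.1% (27.2 to 33.2) of astrocyte nuclei in mutant replicates 1 and 2 and in 31.2% (27.1 to 35.5) and 40.9% (36.8 to 45.0) in control replicates 1 and 2. CA1 pyramidal nuclei, which should lack the transcript, had one in 0.582% to 3.94%. After thinning to 1000 UMIs the shares were 8.98% and 16.3% in the mutants and 17.9% and 17.5% in the controls. Both mutants were below both controls before and after thinning, mutant replicate 2 by a small margin. After thinning mutant replicate 1 was lowest, and the other 3 samples lay close together. The difference in share was not tested, and how many genes differ in this way was not counted. The tenth of nuclei with most *Gfap* held 84.5% and 75.5% of its UMIs in the mutants and 82.1% and 63.7% in the controls, and nuclei with 10 or more UMIs numbered 3, 14, 5 and 9. Such shares are not particular to *Gfap*, since each gene is ranked on its own counts and few UMIs alone give a high share. The same measure was 100% for *Vim*, *Serpina3n*, *C4b*, *Cd44* and *Osmr* in every sample. For *Stat3* it was 48.7% to 66.7%. Apart from the 2 deep nuclei, the highest *Gfap* count was 104, in a nucleus of 7737 UMIs in mutant replicate 2.

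**Figure D3:**
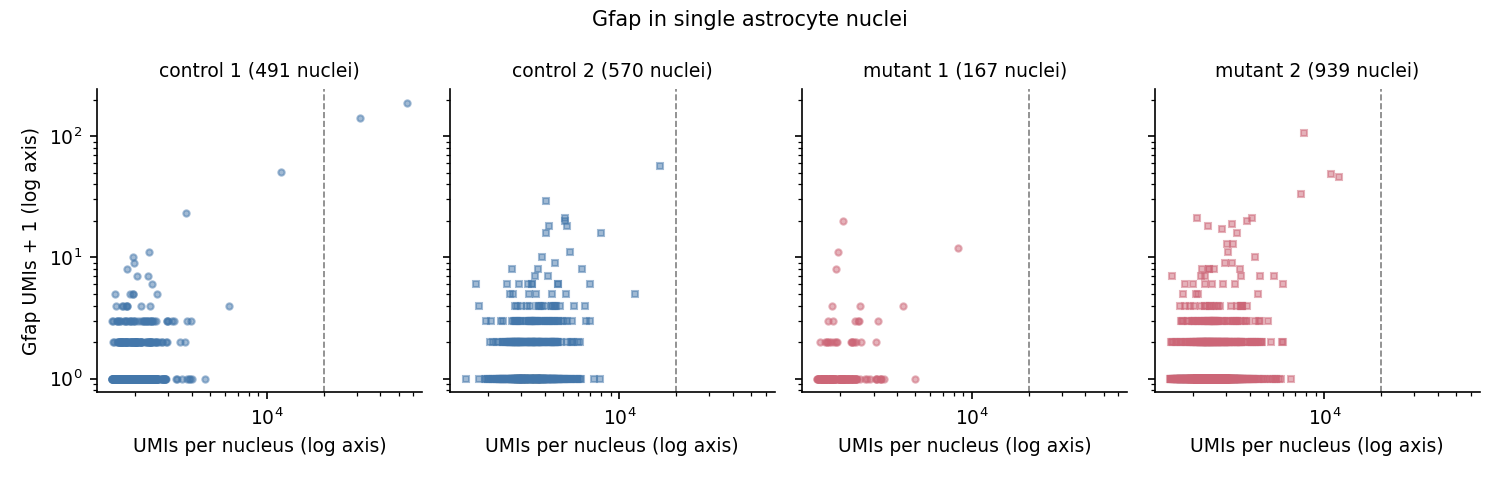
Gfap UMIs plus 1 (log axis) against all UMIs (log axis) for each astrocyte nucleus, with 1 panel per sample and a dashed line at 20000 UMIs. Only control replicate 1 has nuclei beyond the line, with 187 and 141 Gfap UMIs, and most nuclei in every panel lie at 0 or 1 Gfap UMI.

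The nuclei with a *Gfap* UMI also held most of the *Vim*. They carried 4 of 6 and 23 of 42 *Vim* UMIs in mutant replicates 1 and 2 and 48 of 53 and 58 of 72 in control replicates 1 and 2, where they held 20.2%, 32.7%, 37.6% and 42.6% of all UMIs. Scaled to all UMIs of each class, *Vim* was at 56.9 and 28.0 CPM in mutant and 114 and 66.0 CPM in control nuclei with *Gfap*, and at 7.16 to 11.8 CPM in nuclei without. The 2 deep nuclei held 28 of the 48 UMIs of control replicate 1, and without them its nuclei with *Gfap* were at 60.0 CPM, close to mutant replicate 1. *C4b* was split alike, at 28.4 and 52.3 CPM in mutant and 64.3 and 55.8 CPM in control nuclei with *Gfap*, against 14.3 to 21.1 CPM in nuclei without. *Cd44* was at 18.2 to 28.4 CPM with and 5.73 to 9.30 CPM without. Leaving out the deep nuclei, control replicate 1 was at 54.0 CPM for *C4b* in nuclei with *Gfap*, and 5 of their 10 *Cd44* UMIs remained. *Serpina3n* and *Osmr* were also higher with *Gfap* in every sample. *Serpina3n* was at 20.5 to 52.4 CPM with and 10.8 to 30.1 CPM without, and *Osmr* at 11.4 to 28.4 CPM with and 7.16 to 14.4 CPM without. In mutant replicate 1, *C4b*, *Cd44*, *Serpina3n* and *Osmr* each had only 2 UMIs in nuclei with *Gfap*. *Stat3* was higher with *Gfap* in 3 samples and lower in mutant replicate 2 (84.0 against 113 CPM). Median depth differed little between the nuclei with and without *Gfap* (1997 and 1971 UMIs in control replicate 1, 2614 and 2445 in mutant replicate 2).

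Across the deposited cell types, 5 of the 8 transcripts had their highest mean in astrocytes among the 11 types that had no fewer than 10 nuclei in any sample, leaving aside *Lcn2*, which had 3 UMIs or fewer in any type and sample. Levels here are CPM of each type, not TMM-scaled, with the mean and SD over the 4 samples. Because the authors clustered the nuclei on all genes, these levels are a description. *Gfap* averaged 371 ± 156 CPM in astrocytes and 7.75 ± 3.85 CPM in oligodendrocyte precursors (OPC), the next type, with no overlap. From OPC downwards neighbouring types overlapped. *Vim* averaged 29.1 ± 14.9 CPM in astrocytes and 9.87 ± 4.37 CPM in inhibitory neurons, *C4b* 29.3 ± 6.9 CPM in astrocytes and 5.97 ± 4.97 CPM in oligodendrocytes, and *Osmr* 12.8 ± 3.9 CPM in astrocytes and 2.72 ± 0.97 CPM in inhibitory neurons. None of these first steps had overlap. *Cd44* averaged 12.6 ± 0.8 CPM in astrocytes and overlapped with inhibitory neurons, at 8.11 ± 6.72 CPM.

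*Serpina3n* and *Stat3* were not led by astrocytes. *Serpina3n* averaged 34.7 ± 2.4 CPM in OPC, 26.6 ± 4.0 CPM in DGCs, 24.2 ± 9.1 CPM in astrocytes and 17.9 ± 17.0 CPM in oligodendrocytes, each overlapping with the next. *Stat3* averaged 165 ± 79 CPM in microglia, 120 ± 17 CPM in astrocytes, 109 ± 38 CPM in OPC and 67.0 ± 3.1 CPM in oligodendrocytes, and 17.7 to 48.9 CPM in the neuron types. The low microglia value, 46.4 CPM in mutant replicate 1, rests on 1 UMI in 13 nuclei, where the other 3 samples were at 204 CPM.

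**Figure D4:**
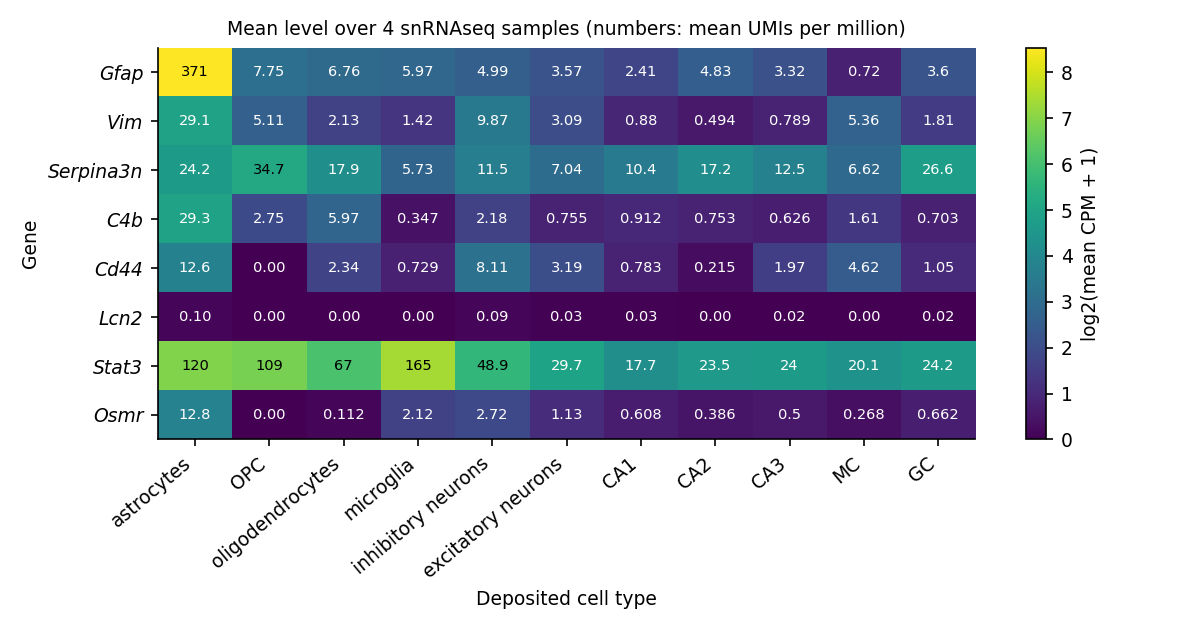
Mean level of each transcript over the 4 snRNAseq samples in 11 deposited cell types, with colour for log2(mean CPM + 1) and numbers for the mean CPM. Gfap stands out in astrocytes (371), Stat3 spans all types with its highest mean in microglia (165), and Serpina3n is highest in OPC (34.7).

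Within the types, single clusters carried some of these values and went against their labels. Cluster 14, deposited as inhibitory neurons, had *Gad1* and *Gad2* at 6.45 to 43.9 CPM, the endothelial *Flt1* at 661 to 993 CPM and the pericyte gene *Rgs5* at 451 to 703 CPM. The fibroblast genes *Dcn* and *Col1a2* were at 187 to 653 CPM there too, so the cluster was mixed by these markers. This cluster held *Vim* at 111 to 192 CPM and *Osmr* at 26.0 to 49.3 CPM, more than astrocytes did. Cluster 19, deposited as excitatory neurons, had *Slc17a7* at 0 to 98.9 CPM and the fibroblast genes *Col1a2* and *Dcn* at 63.1 to 440 CPM, with *Stat3* at 147 to 257 CPM. Nuclei labelled EC numbered 4 and 11 in mutant replicates 1 and 2 and 9 in control replicate 2. They had the endothelial *Cldn5* at 1310 to 1728 CPM but were mixed by markers. In the same order, *Dcn* was at 1861, 1275 and 363 CPM and *Rgs5* at 276, 285 and 2099 CPM. In the 11 nuclei of mutant replicate 2, *Vim* was at 1627 CPM (97 UMIs) and *Gfap* at 436 CPM (26 UMIs), above the 350 CPM of astrocytes in that sample, with the astrocyte genes *Slc1a2* and *Aqp4* at 1308 and 201 CPM.

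Of the *Cd44* UMIs in nuclei labelled inhibitory, cluster 15 held 81 of 88 and 74 of 98 in mutant replicates 1 and 2 and 9 of 14 and 3 of 24 in control replicates 1 and 2, where cluster 14 held 16 of the 24. Its nuclei numbered 143 and 102 in mutant replicates 1 and 2 and 15 and 1 in control replicates 1 and 2, with *Cd44* at 104, 86.2, 65.8 and 162 CPM. *Slc17a7*, the glutamate transporter of excitatory neurons, was at 130.5 to 217 CPM there, and *Gad1* and *Gad2* at 0 to 9.32 CPM. The highest *Slc17a7* value came from the 1 nucleus of control replicate 2. Other nuclei also held *Slc17a7*, astrocytes at 45.8 to 54.5 CPM and those labelled EC in control replicate 2 at 236 CPM. Over all nuclei labelled inhibitory, *Cd44* was at 18.2 and 7.69 CPM in the mutants and 3.49 and 3.49 CPM in the controls (log2 FC 1.83 ± 0.46 (SE), FDR = 0.222). Without clusters 14 and 15 it was at 1.24 and 1.53 CPM against 0.273 and 0.806 CPM, from 28 UMIs in all, too few for the test. *Vim* in nuclei labelled excitatory was at 0.419 and 1.32 CPM in the mutants and 2.68 and 7.73 CPM in the controls (FDR = 0.354). It lay mainly in cluster 19, which had 19 and 64 nuclei in the mutants and 33 and 19 in the controls. Within that cluster *Vim* was at 42.1 and 34.6 CPM in the mutants and 134 and 210 CPM in the controls (2, 7, 10 and 23 UMIs). Without that cluster 13 UMIs were left, and the genotypes overlapped.

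Over the 11 cell types, the 7 members gave 42 comparisons of genotype that passed the filter on low counts, of which 6 had an unadjusted p below 0.05 (10.5% of all comparisons of a gene in a type) and 1 was called (0.253%). That one was *Stat3* in DGC nuclei. It was at 16.7 and 14.6 CPM in mutant replicates 1 and 2 and at 33.7 and 32.1 CPM in control replicates 1 and 2 (7, 49, 384 and 519 UMIs in 90, 463, 2336 and 2007 nuclei). Both mutants were far below both controls (log2 FC -1.14 ± 0.24 (SE), FDR = 0.0499, adjusted over 15003 genes, of which 1.47% were called, 0.64% as lower). The call lay at the threshold. The log2 FC was between -1.19 and -1.001 over the 8 alternatives, but the FDR rose to 0.159 with DESeq2, 0.0507 with RLE scaling, 0.144 and 0.484 without mutant replicate 1 or 2 and 0.0534 without control replicate 1.

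The fit also gave lower *Stat3* in the mutants in all 11 types, with log2 FC from -1.14 to -0.07, although in OPC the plain mean was higher in the mutants (119.7 against 106 CPM), and without overlap in 6 of them, where 21.5% of all comparisons of a gene in a type were lower without overlap. The 11 values come from the same 4 samples and are not independent. In CA3 nuclei *Stat3* was at 17.2 and 16.6 CPM in the mutants and 39.1 and 23.4 CPM in the controls (log2 FC -0.87 ± 0.27 (SE), FDR = 0.268). In CA2 it was at 20.7 and 19.4 CPM against 30.8 and 24.5 CPM, and in mossy cell nuclei, labelled MC, at 17.4 and 14.9 CPM against 28.3 and 24.7 CPM. CA1 nuclei overlapped, at 18.9 and 15.7 CPM in the mutants and 20.3 and 16.0 CPM in the controls (log2 FC -0.07, 95% interval -0.55 to 0.40).

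Mutant and control DGCs differed in the share that carried *Trhr*, a receptor for thyrotropin-releasing hormone that marks ventral DGCs. Nuclei with a *Trhr* UMI were 21.1% and 31.7% in mutant replicates 1 and 2 and 2.70% and 4.53% in control replicates 1 and 2. In the controls, nuclei with a *Trhr* UMI had *Stat3* at 14.8 CPM in both replicates (6 and 13 UMIs, 95% counting intervals 5.42 to 32.1 and 7.90 to 25.4), whereas nuclei without had 34.5 and 32.9 CPM (31.1 to 38.1 and 30.1 to 35.9). In the mutants, nuclei with a *Trhr* UMI were at 20.3 and 9.29 CPM and those without at 15.8 and 17.0 CPM. Control nuclei with a UMI of *Lct*, a transcript of dorsal DGCs, had *Stat3* at 33.2 and 34.9 CPM, whereas mutant nuclei with one, 5 and 28 in number, had 0 and 3 *Stat3* UMIs (0 and 12.8 CPM, intervals up to 123 and 37.3 CPM). The intervals cover counting error only, and the part of the position of the nuclei in the difference between genotypes was not tested. *Trhr* and *Lct* were chosen after the *Stat3* values were seen.

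**Figure D5:**
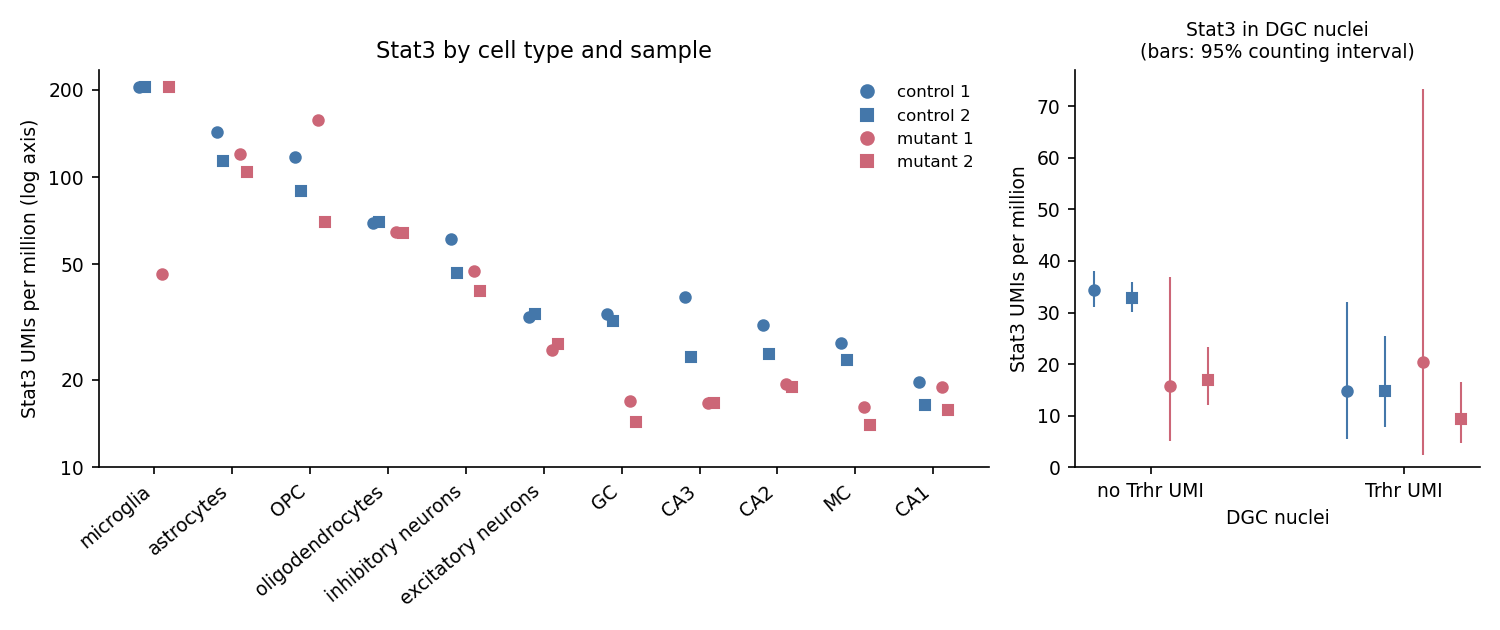
Left, Stat3 CPM of UMIs (log axis, unscaled) by cell type and sample, controls in blue and mutants in red. Right, Stat3 CPM in DGC nuclei without and with a Trhr UMI, with 95% counting intervals. Control DGC nuclei without Trhr lie at 34.5 and 32.9 CPM, and control nuclei with Trhr and both classes of mutant DGC nuclei lie at 20.3 CPM or below. The value of 20.3 CPM, mutant replicate 1 with Trhr, rests on 2 UMIs, with an interval up to 73.4 CPM.

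The genes of the interleukin-6 and STAT3 pathway gave no call. Of 21 listed, 19 were tested in bulk RNAseq, with 10 higher and 9 lower in the mutants and a median log2 FC of 0.02 (0 past FDR below 0.05; 3 with an unadjusted p below that level). In astrocyte nuclei 11 were tested, with 3 higher and 8 lower, a median of -0.12 and 0 past the FDR. By role, *Il6st*, which encodes the shared signalling subunit gp130, was at 83.1 and 87.7 CPM in mutant and 88.8 and 84.1 CPM in control bulk libraries. *Lifr*, the partner of gp130 for leukaemia inhibitory factor, was at 131 and 155 CPM in mutant and 117 and 99.9 CPM in control astrocyte nuclei (log2 FC 0.44 ± 0.20 (SE), FDR = 0.455). That was the highest value among the 11 pathway genes tested in these nuclei, of which 8 were lower. *Jak1*, the kinase bound to these receptors, was at 191 and 187 CPM against 192 and 197 CPM in bulk. *Socs3*, a feedback inhibitor that STAT3 induces, was at 0.70 and 1.16 CPM against 1.01 and 0.94 CPM in bulk. The ligand transcripts *Il6* and *Osm* stayed at or below 0.104 CPM in every bulk library and were not tested.

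The other lists of reactive transcripts also gave no call. Of 13 pan-reactive transcripts, 6 of which are members, 8 were higher and 5 lower in mutant bulk libraries (median log2 FC 0.09), and of 8 tested in astrocyte nuclei 5 were higher and 3 lower (0.19). Of 11 A1 transcripts, named for neuroinflammation, 9 were higher in bulk (0.24), and of 11 A2 transcripts, named for ischaemia, 6 (0.14), with 3 and 2 tested in astrocyte nuclei. Of 12 complement genes 8 were higher in bulk (0.21), and *C3*, often used as an A1 marker, was at 4.50 and 1.46 CPM in the mutants and 2.62 and 1.07 CPM in the controls. Of 16 homeostatic astrocyte transcripts, 11 were higher in bulk (0.10) and 6 in astrocyte nuclei (-0.11), and none passed FDR below 0.05. *Slc1a2* was at 2168 and 1928 CPM in mutant and 2755 and 2947 CPM in control bulk libraries (log2 FC -0.48 ± 0.08 (SE), FDR = 0.0726). It had the lowest bulk value of the 16 and does not stand for the list, of which 11 went the other way.

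The transcripts whose levels were most like those of each member over 46 pairs of cell type and sample, by Pearson's r of log2(CPM + 1) among 14941 genes, are given as a description, since the points share libraries and depth. For *Gfap* these were *S1pr1* (r = 0.92), a sphingosine 1-phosphate receptor, *Id4* (0.90) and *Agt* (0.90), the angiotensin precursor. *Vim* was like *Anxa5* (0.85) and *Atp5b* (0.84), and *C4b* like *Tst* (0.89), *3110082J24Rik* (0.84) and *Paqr6* (0.84). *Cd44* was most like *Egfr* (0.83), the receptor of epidermal growth factor, *Egfros* (0.74) and *9430041J12Rik* (0.74), and *Osmr* like *Pdzph1* (0.88), *Gm29367* (0.88) and *Egfros* (0.87). *Stat3* was most like *Gnai2* (0.91), a G protein subunit, *Tcn2* (0.89) and *Elf1* (0.89). The values were lowest for *Serpina3n*, with *Scamp3* (0.77), *Rbfa* (0.76) and *Eif3m* (0.76).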

How the data were processed

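Bulk RNAseq reads were aligned by the authors to mm10 with RSEM 1.3.0 and Bowtie2 2.2.9, and the authors deposited for each gene an expected count, which shares out reads that fit several genes, and a TPM. A further deposited table holds a scaled signal, in which each library's expected counts were divided by a single factor. For snRNAseq (10x v3) the authors used Cell Ranger 3.1.0 on a pre-mRNA index and deposited matrices of UMI counts by gene and nucleus with an annotation of cell types and clusters, of which the types were used as deposited. Doublets were not called here.

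Expected counts were rounded, and for every type that had no fewer than 10 nuclei in any sample, UMI counts were added up within each sample. Genotypes were compared in edgeR 4.0.16 (R 4.3.3) by the quasi-likelihood test after filterByExpr and TMM scaling, with Benjamini-Hochberg adjustment (FDR) over all genes tested, at the thresholds of the study, FC above 3 in bulk RNAseq and FC above 2 in snRNAseq with FDR below 0.05. EBSeq and Monocle 3, used by the authors, were not run. Standard errors are the log2 FC over the root of F. CPM beside a test are TMM-scaled, and those by cell type, cluster or nucleus are not. Shares of nuclei have exact Clopper-Pearson intervals, counts exact Poisson intervals, and a count of 0 is given the limit of 3 counts. All cover counting error only. With 2 mice per group, an exact permutation test cannot reach 0.05.

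The members and lists were chosen with earlier results of these data known. Named are the 8 members, *Wls*, *Xist* and *Ddx3y*, listed genes past the FDR, defining markers of other cell types, and the 3 genes most like each member, of which 1 is not reported here. Pathway genes named by role, *Trhr*, *Lct* and markers of clusters were chosen after values were seen. Alternatives were DESeq2 1.42.0, RLE scaling, no filter, the deposited matrix and TPM as log2(value + 1) in limma 3.58.1, no fold, a replicate block, other selections and thinning of nuclei, and each sample left out. The tests were tested on simulated data. Of 200 genes changed 2-fold, 62.5% were recovered among 20687 genes in bulk RNAseq and 43% among 11482 in astrocyte nuclei. Of those changed 4-fold, 94.5% were recovered in both. False calls were 6 and 13 in bulk RNAseq for the 2-fold and 4-fold changes, and 2 and 2 in astrocyte nuclei. A 2-fold change lies below the FC above 3 asked of bulk calls, so its share does not measure that rule. No share is given for genes with as few UMIs as most members.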

Additional observations from a re-analysis of the deposited data

Results flagged for a closer look

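*Vim* and *C4b* were flagged because all mutants moved one way in bulk RNAseq and the other way in astrocyte nuclei. Groups did not overlap for 51.1% of all genes in bulk and 41.3% in astrocyte nuclei. The share of all genes with opposite directions was not counted, so the pattern may be common. *Vim* was higher in both mutants in bulk (log2 FC 0.30) and lower in both in astrocyte nuclei (-1.20), a difference of log2 FC of -1.501, and *C4b* was likewise at 0.25 and -0.34, a difference of -0.59. The difference itself was not tested, since the assays use different libraries, of whole tissue and of nuclei. For *C4b* the opposite direction in nuclei without overlap was lost when the 2 deep nuclei of control replicate 1 were left out.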

How the results depend on the processing

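With 2 mice per group and few UMIs for most members in astrocyte nuclei, only large differences could be detected, and *Lcn2* could not be judged. Apart from *Lcn2*, the refitted bulk log2 FC of the members lay between -0.18 and 0.47. None of these reaches an FC of 3 in either direction, which alone keeps them from a call. The count of members called in bulk RNAseq was 0 under every alternative, also with no fold. In astrocyte nuclei it was 0 except with no filter on low counts and without mutant replicate 1, where it was 1 (*Vim*), so that leaving out a sample gave 0 to 1. Of 80 refitted bulk values 2 reversed, the log2 FC of *Cd44* to -0.14 without mutant replicate 1 and of *Lcn2* to 0.17 without mutant replicate 2, and 2 passed the FDR that had not, *Vim* with DESeq2 and with no filter. Of 82 astrocyte values 6 reversed: *Gfap* to 0.14 in nuclei with 0 UMIs of *Snap25*, *Mbp* and *Cx3cr1*, to 0.049 without control replicate 1 and to 0.014 without the nuclei above 20000 UMIs (chosen after seeing the data), *Serpina3n* to -0.67 and *Cd44* to -0.14 without mutant replicate 2, and *Cd44* to -0.02 without control replicate 1. Over the samples left out in turn the values ran from -0.14 to 0.45 for bulk *Cd44*, -2.20 to 0.17 for bulk *Lcn2*, -0.88 to 0.049 for *Gfap*, -0.67 to 0.64 for *Serpina3n* and -0.14 to 0.12 for *Cd44* in astrocyte nuclei. The causes were not tested.

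Counts over all genes moved more. In bulk RNAseq 4 genes were called higher and 41 lower, against 66 higher with DESeq2, 201 and 112 with no filter, 2 and 23 on TPM, 41 and 209 with no fold, and 0 to 248 higher and 0 to 147 lower with a library left out. In astrocyte nuclei 15 were higher and 29 lower, against 8 and 10 with DESeq2, 44 and 81 with no filter, 26 higher when thinned, 26 and 44 without the nuclei above 20000 UMIs, and 0 to 65 higher and 0 to 107 lower with a sample left out. The counts of 0 came without either control sample. The labels do not pair same-numbered replicates, and their deviations correlated weakly (0.06 in bulk and 0.10 in astrocytes), but in bulk the numbers also separate the libraries by *Xist* and *Ddx3y*. With the replicate block, 2 and 24 genes were called in bulk and 38 and 54 in astrocyte nuclei, and 0 members in either. *Stat3* in DGC nuclei had an FDR of 8.1e-04 with the block. Alternatives for DGC, inhibitory and excitatory nuclei were chosen after seeing the data. Every astrocyte nucleus had at least 1000 UMIs, so that minimum changed nothing.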
